A study of Homo sapiens with 4 samples.

Results

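Receptor tyrosine kinases are cell surface receptors that carry a tyrosine kinase in their cytoplasmic part. A list of 53 receptor tyrosine kinase genes was matched by symbol to the Ensembl identifiers of a count table of 60880 genes, and each of the 53 matched 1 identifier. RNA-Seq counts came from 4 libraries of LNCaP95, a subline of the LNCaP prostate cancer cell line adapted to growth without androgen, and of LN95(KO), a line derived from it by CRISPR targeting of UGT2B17. LNCaP95 was labelled WT for UGT2B17 (replicates 1 and 2) and LN95(KO) was labelled UGT2B17 KO (replicates 3 and 4). Both lines grew untreated in medium with charcoal-stripped serum. The labels give LN95 as the cell line of every library, whereas the design text of the series calls the knockout line LNCaP, so the record differs on its parent. How many knockout clones were used was not given, and the labels do not say whether the libraries of a group came from separate cultures, so p-values measure the spread between these libraries, which may be technical.

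A ligand brings receptor molecules together or reorders an existing dimer, the kinases then phosphorylate each other, and adaptor proteins dock on the phosphorylated tyrosines and pass the signal to the RAS-ERK and PI3K-AKT pathways. Ephrins, which bind the EPH receptors, are themselves anchored to the membrane of a neighbouring cell. In prostate cancer the ERBB, IGF1 and FGF receptors are best known as routes of growth signalling that can act beside the androgen receptor. A few members, among them EPHA10, EPHB6, PTK7 and RYK, have a kinase fold with little or no catalytic activity.

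UGT2B17 itself, which encodes an enzyme that conjugates androgens to glucuronic acid, had 2788 and 2748 counts in the LNCaP95 libraries but 21 and 20 in those of LN95(KO), in the direction of the labels. Gene reads ranged from 17330338 to 18813193 per library, and 3 counts, the limit that a count of 0 allows, corresponded to 0.159 to 0.173 CPM (counts scaled to library size). Reads that did not align were 3.85% and 3.96% of all entries for LNCaP95 against 8.05% and 7.71% for LN95(KO), and the part of this difference in the results was not tested. All 8 luminal prostate markers were tested and reached 1 CPM, with summed counts of 55386 to 55691 in LNCaP95 and 60105 to 60780 in LN95(KO). These sums do not show the single markers. At an edgeR adjusted p under 0.05 and a fold change over 2, 3 of the 8 were higher in LN95(KO) and 1 was lower. Of 6 immune markers none reached the filter of the test, and their summed counts were 2 to 6 per library. Summed counts of 4 endothelial markers were 11 in each LNCaP95 library against 53 and 69 in LN95(KO), mostly from VWF, with CDH5 at 0 counts in every library. Those of 6 fibroblast markers were 553 to 575 in LNCaP95 and 595 to 632 in LN95(KO), mostly from COL1A1, with DCN at 0. Those of 4 basal markers were 3 and 4 against 20 and 28, mostly from KRT14 in LN95(KO). The part of these markers in the results was not tested.

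At a group mean of 1 CPM or more, 30 of the 53 receptors were expressed in at least 1 of the lines. LNCaP95 expressed 27 and LN95(KO) 26, with 23 in common. Those that reached 1 CPM in LNCaP95 but not in LN95(KO) were MET, EPHB1, RET and ROR2. Those that reached it in LN95(KO) but not in LNCaP95 were FGFR3, EPHA3 and NTRK2. The other 23 receptors had counts below 1 CPM in both lines, but for DDR1, which is among them, no level can be read. Closest to the limit in LNCaP95 were EPHB6, at 0.924 CPM, and PDGFRB and MET, each at 1.09 CPM. In bulk RNA, fewer cells with a transcript and less of it per cell cannot be told apart.

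**Figure D1:**
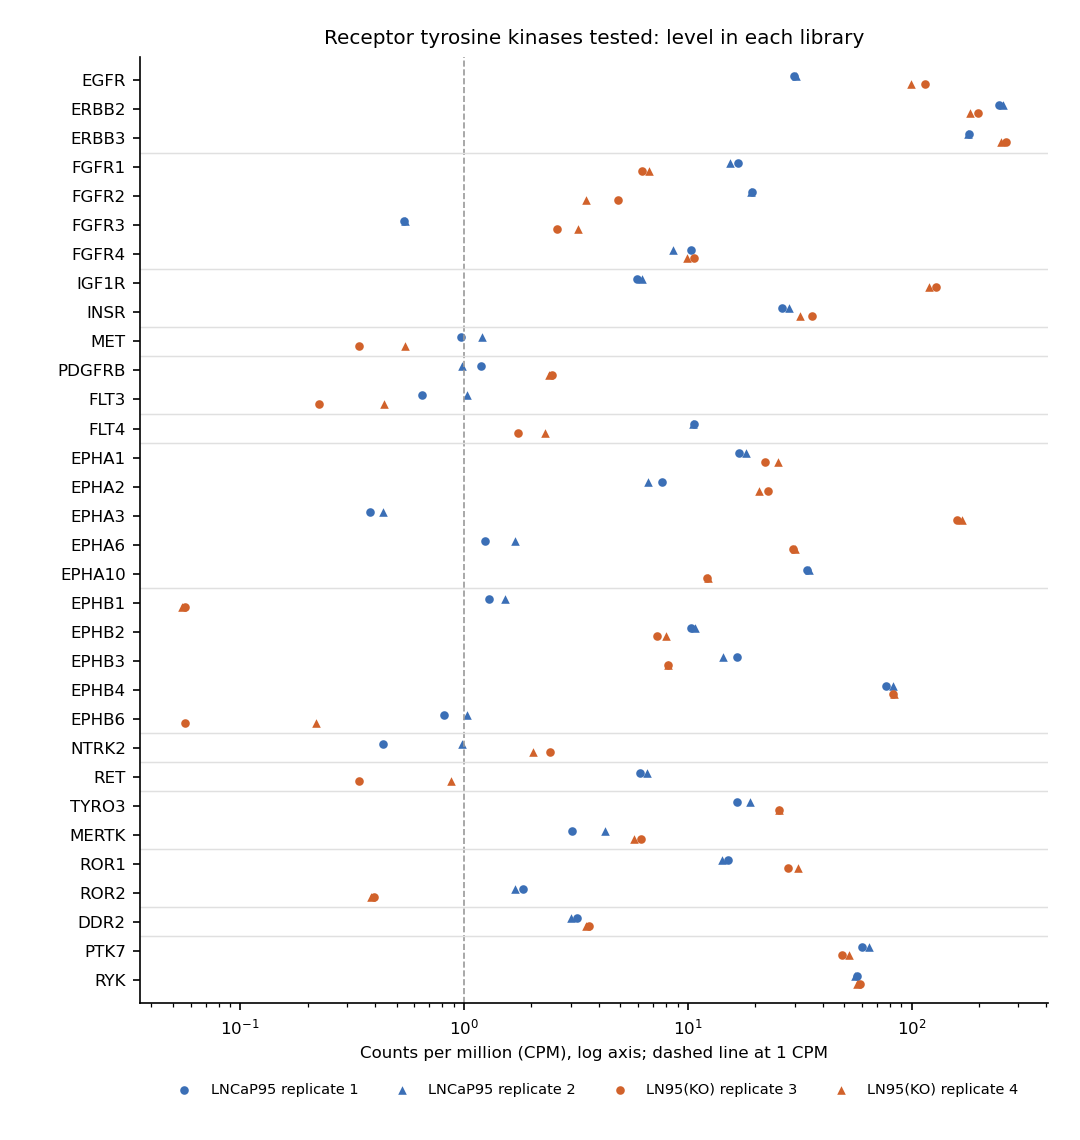
The plot gives the level of each tested receptor in each library in CPM on a log axis, with LNCaP95 in blue, LN95(KO) in orange, a circle and a triangle for the libraries of a group, and a dashed line at 1 CPM. EPHA3 spans the widest distance, from under 1 CPM in both LNCaP95 libraries to over 100 CPM in both LN95(KO) libraries, whereas EPHB4 and RYK overlap.

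Of the 53 receptors, 32 had enough reads for a test. In the edgeR quasi-likelihood fit, called at a Benjamini-Hochberg adjusted p under 0.05 and a fold change over 2, 19 of these 32 differed between the lines. This compares with 18.0% of all 15626 genes tested. In LN95(KO), 9 receptors were higher and 10 were lower, where 8.86% of all genes were higher and 9.13% lower. Another 9 receptors (ERBB2, ERBB3, INSR, EPHA1, EPHB2, EPHB3, TYRO3, MERTK and PTK7) passed the adjusted p at a smaller change, and 4 (FGFR4, EPHB4, DDR2 and RYK) did not pass it. At that p alone, 28 receptors and 59.8% of all genes passed. The median log2 fold change of the 32 was 0.09, and the median size of the change regardless of direction was 1.29, against -0.01 and 0.37 over all genes. The libraries of the lines did not overlap for 29 of the 32, which is to be read against 79.8% of all genes. EPHA3, IGF1R, EPHA6 and EPHB1 changed by more than 16-fold, as did 266 of all genes tested. Because receptors with few reads in both lines were not tested, these counts do not describe all 53. Some receptors, such as EPHA3 and EPHB1, passed the filter only through the line where they were high, which can raise the share called. The same filter was applied to all genes. The members were chosen with earlier results of these data known, so their share of calls is not a test of the list. Exons of 9 tested receptors lie in part under another annotated gene, by at most 11.0% of their bases.

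**Figure D2:**
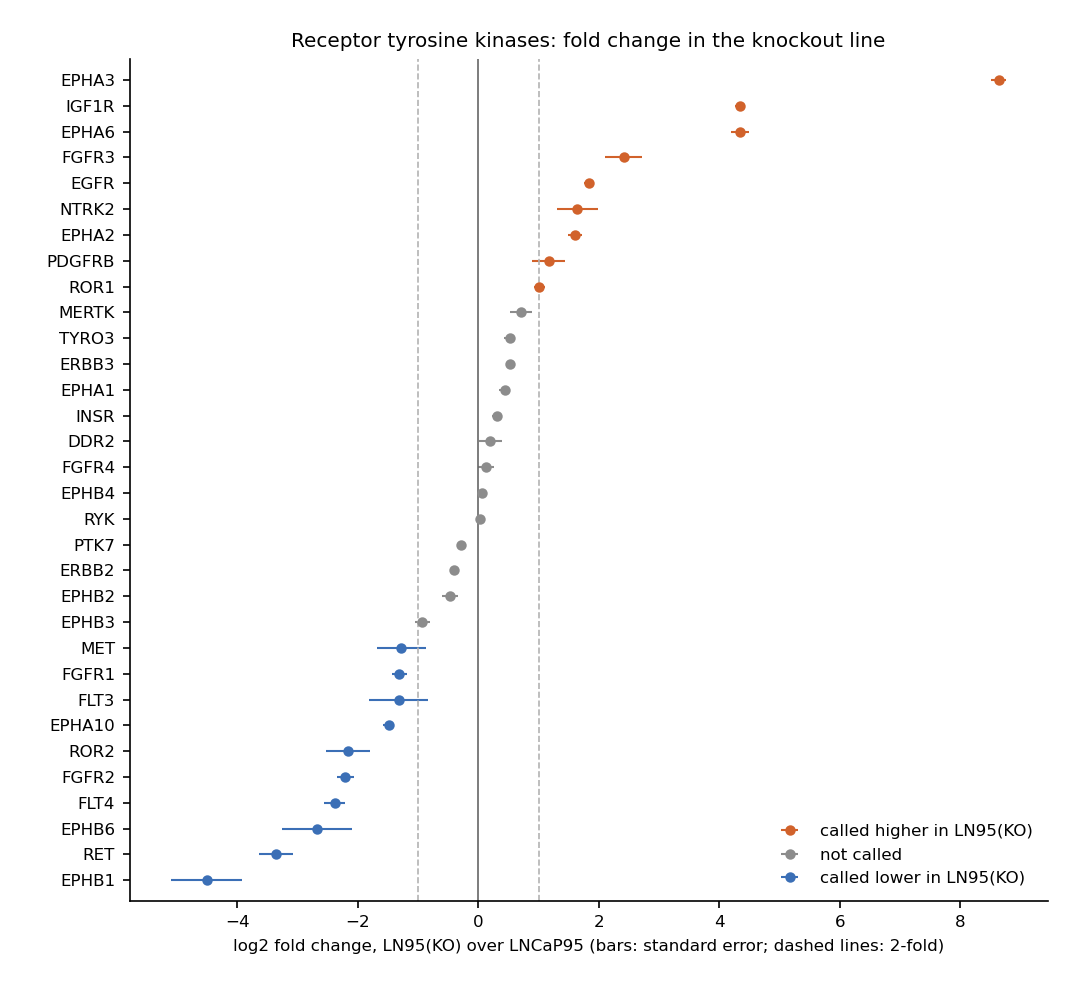
Points give the log2 fold change of LN95(KO) over LNCaP95 for the 32 tested receptors in order of size, bars give the standard error, dashed lines mark a 2-fold change, and colour marks the call. EPHA3 stands at 8.63, IGF1R and EPHA6 follow at 4.35 and 4.34, and EPHB1 and RET lie at the other end at -4.51 and -3.36.

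Among the ephrin-A receptors, 5 of 9 were tested, 3 rose in LN95(KO) and 1 fell. EPHA3, which binds EFNA5 with high affinity, had 7 and 8 counts in LNCaP95 against 2841 and 3079 in LN95(KO). Its mean level went from 0.407 ± 0.041 to 164.4 ± 5.80 CPM (SD, n = 2 per line), a 397-fold rise, or 8.63 on the log2 scale (standard error 0.12, edgeR adjusted p = 8.55e-19). EPHA3 was thus close to absent in both LNCaP95 libraries and abundant in both LN95(KO) libraries. The gene (ENSG00000044524.10_2) lies on the plus strand of chromosome 3 at positions 89156771 to 89531284 of GRCh37, in 17 exon blocks. EPHA6, an ephrin-A receptor known mainly from the nervous system, had 23 and 31 counts against 523 and 553, and rose by 4.34 on the log2 scale (standard error 0.14, adjusted p = 6.20e-14). It lies on the same strand of chromosome 3 at positions 96533425 to 97480376, and 11.0% of its exon bases lie under another annotated transcript of the same strand.

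EPHA2, the ephrin-A receptor typical of epithelia, had 141 and 122 counts in LNCaP95 against 404 and 380 in LN95(KO), for a log2 fold change of 1.61 (standard error 0.11). EPHA10, whose kinase domain is inactive, had 632 and 638 counts against 216 and 226 and fell by 1.49 on the log2 scale (standard error 0.09, adjusted p = 1.38e-10). The direction within this family was therefore mixed. EPHA1 had 312 and 334 counts against 392 and 463, a log2 fold change of 0.44 (standard error 0.10) that was under 2-fold. EPHA5 was not tested, with 8 and 12 counts against 0 and 1, and its pooled scaled counts were 19.6-fold lower in LN95(KO) with a counting interval of 3.13 to 810. EPHA8 had 0 to 9 counts, and EPHA4 and EPHA7 had 0 in every library.

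All 5 ephrin-B receptors were tested, and the 2 that were called were lower in LN95(KO). EPHB1 (ENSG00000154928.17_4; chromosome 3, plus strand, positions 134514102 to 134979309) was at 24 and 28 counts in LNCaP95 and 1 count in each LN95(KO) library. The log2 fold change was -4.51 (standard error 0.59, adjusted p = 3.99e-06), and the ratio of pooled scaled counts was 25.4 with a 95% counting interval of 6.69 to 215. EPHB6, which lacks kinase activity, fell from 15 and 19 counts to 1 and 4 (log2 fold change -2.67, standard error 0.58), but was below 1 CPM in both lines. Leaving out replicate 3 of LN95(KO) gave -2.04 for EPHB6, and leaving out replicate 4 gave -3.87. EPHB1 and EPHB6 were both down to a handful of reads in LN95(KO). EPHB3 had 306 and 264 counts against 144 and 149, at a log2 fold change of -0.93, and EPHB2 had 191 and 198 against 129 and 146, at -0.47. EPHB4, the receptor of EFNB2, had 1415 and 1519 counts against 1460 and 1526. Its groups overlapped, and the log2 fold change of 0.06 had an interval of -0.06 to 0.17.

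In the insulin receptor family, IGF1R and INSR behaved differently in size. IGF1R, the receptor of IGF1 and IGF2, had 110 and 114 counts in LNCaP95 against 2289 and 2175 in LN95(KO). Its level went from 6.08 ± 0.19 to 124.1 ± 7.16 CPM, a 20.4-fold rise (log2 fold change 4.35, standard error 0.08, adjusted p = 3.48e-17). IGF1R (ENSG00000140443.14_4) lies on the plus strand of chromosome 15 at positions 99191768 to 99507759, in 30 exon blocks, none under another annotated gene. INSR, the insulin receptor, had 488 and 518 counts against 635 and 579, a log2 fold change of 0.30 with an interval of 0.14 to 0.47. INSRR, the third member, had 0 to 2 counts.

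ERBB2 and ERBB3 had the highest levels per kilobase of exon in LNCaP95, but EGFR was the member called. EGFR, which binds EGF and TGFA, had 553 and 556 counts in LNCaP95 against 2028 and 1823 in LN95(KO), a 3.55-fold rise (log2 fold change 1.83, standard error 0.07, adjusted p = 6.94e-13). ERBB2, which has no known ligand of its own and pairs with the other members, had 4537 and 4707 counts against 3497 and 3346. Its log2 fold change was -0.40 (standard error 0.05). ERBB3, the neuregulin receptor with a weak kinase, had 3330 and 3281 against 4698 and 4579, at 0.52 (standard error 0.05). In both the lines did not overlap, and the change was under 2-fold. ERBB4 had 1 count in 1 LNCaP95 library and 0 in the others.

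All 4 FGF receptors were tested, and 2 fell, 1 rose and 1 did not pass the test. FGFR2 had 359 and 351 counts in LNCaP95 against 86 and 64 in LN95(KO), for a log2 fold change of -2.21 (standard error 0.14, adjusted p = 3.38e-10). FGFR1 had 311 and 283 against 111 and 123, at -1.31 (standard error 0.12, adjusted p = 5.57e-08). The lower-level FGFR3 moved the other way, from 10 counts in each LNCaP95 library to 46 and 59, at 2.41 (standard error 0.31, adjusted p = 2.96e-06). FGFR4 had 190 and 157 counts against 188 and 182. Its groups overlapped, with a log2 fold change of 0.13 and an interval of -0.13 to 0.38.

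RET, the receptor of the GDNF family, had the largest drop after EPHB1 among the receptors tested. RET (ENSG00000165731.18_3; chromosome 10, plus strand, positions 43572512 to 43625799) was at 113 and 120 counts in LNCaP95 against 6 and 16 in LN95(KO). The log2 fold change was -3.36 (standard error 0.28, adjusted p = 1.50e-08), and it was -2.84 without LN95(KO) replicate 3 and -4.19 without replicate 4. FLT4, the receptor of VEGFC and VEGFD on lymphatic endothelium, had 197 and 193 counts against 31 and 42 and fell by 2.38 on the log2 scale (standard error 0.17, adjusted p = 2.54e-09). The other receptors of endothelial cells had almost no reads: FLT1 had 3 and 2 counts against 0 and 0, KDR 1 count in all, TIE1 2 counts in all and TEK none.

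Receptors of the PDGF family, MET and the neurotrophin receptors were low. PDGFRB, known from fibroblasts and pericytes, had 22 and 18 counts in LNCaP95 against 44 in each LN95(KO) library, at 1.17 on the log2 scale (standard error 0.27, adjusted p = 0.00119). Of the 6 fibroblast markers in the same libraries, COL1A1 had 520 to 606 counts, COL3A1 10 to 22, COL1A2 1 to 5, FAP at most 1 and DCN 0. LUM had 24 and 19 counts in LNCaP95 and 0 in both LN95(KO) libraries, at least 14.0-fold lower against a limit of 3 counts over the group. The part of these markers in the result was not tested. Of its relatives, FLT3 had 12 and 19 counts against 4 and 8, at -1.32 (standard error 0.49, adjusted p = 0.0276). KIT was not tested, at 0 and 2 counts against 9 and 6 (a ratio of 7.67 with a counting interval of 1.78 to 69.1), CSF1R had 1 to 4 counts, and PDGFRA had none. MET, the receptor of HGF, had 18 and 22 counts against 6 and 10, at -1.28 (standard error 0.41, adjusted p = 0.0129), and its relative MST1R had 1 to 4. NTRK2, the receptor of BDNF, had 8 and 18 counts against 43 and 37, at 1.64 (standard error 0.34, adjusted p = 4.92e-04), while NTRK3 had 0 to 2. The value for NTRK2 was 1.17 without LNCaP95 replicate 1 and 2.34 without LNCaP95 replicate 2. In DESeq2 the calls of PDGFRB, FLT3 and MET were lost, at adjusted p = 0.0647, 0.276 and 0.214. The calls of FLT3 and MET were also lost without LNCaP95 replicate 2 or LN95(KO) replicate 3, and that of FLT3 without LN95(KO) replicate 4.

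Among the receptors that bind Wnt proteins, ROR1 and ROR2 moved in opposite directions. ROR1 had 280 and 262 counts in LNCaP95 against 499 and 570 in LN95(KO), a 2.02-fold rise (log2 fold change 1.01, standard error 0.09, adjusted p = 4.82e-08) that lay at the limit of the call. The call of ROR1 was lost without LNCaP95 replicate 2, at 0.97, and without LN95(KO) replicate 4, at 0.94. ROR2 had 34 and 31 counts against 7 in each LN95(KO) library, at -2.16 (standard error 0.36, adjusted p = 6.34e-05). The more abundant members RYK and PTK7 stayed under 2-fold. RYK had 1053 and 1021 counts against 1041 and 1037, with an interval of the log2 fold change from -0.09 to 0.16, and PTK7 had 1105 and 1188 against 868 and 963, at -0.29. MUSK, the agrin receptor of muscle, had 0 to 4 counts.

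The TAM receptors, which bind GAS6 and PROS1 and clear dying cells in tissues, were both under 2-fold where tested. TYRO3 had 308 and 346 counts in LNCaP95 against 455 and 465 in LN95(KO), at 0.52 on the log2 scale (standard error 0.09), and MERTK had 56 and 78 against 110 and 105, at 0.71 (standard error 0.18). AXL, the third member, had 0 to 4 counts. DDR2, a collagen receptor, had 59 and 55 counts against 64 and 64, with a log2 fold change of 0.20 and an interval of -0.18 to 0.58. ALK and ROS1 had 0 to 2 counts and LTK 1 to 3. For DDR1, the other collagen receptor, 1 count was listed in 1 library, but no level can be read from it. The window of 200 kb on each side of it on chromosome 6 held 14 coding genes, DDR1 included, of which 9 were at 0 in every library. TUBB and FLOT1, which nearly all cells express, had 0 to 3 counts (chosen after their values were seen). VARS2, also in the window and chosen in the same way, had 3 and 1 counts in LNCaP95 against 127 and 3 in LN95(KO).

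Counts were then divided by exon length to compare receptors with each other. On the scale of CPM per kilobase of exon, summed over the 53 receptors, the level was 97.2 ± 1.65 in LNCaP95 and 138.7 ± 1.55 in LN95(KO) (SD, n = 2 per line). DDR1, for which no level can be read, entered this sum at its listed counts of 0 or 1, so the shares and ranks do not include its true level. ERBB2 held the largest share of this sum in LNCaP95, at 25.0% ± 0.36, followed by ERBB3 at 15.8% ± 0.35 and EPHB4 at 12.7% ± 0.49. PTK7 at 7.13% ± 0.28 and RYK at 7.10% ± 0.24 came next and did not differ beyond their spread. In LN95(KO) the order was EPHA3 at 18.0% ± 0.84, ERBB3 at 15.9% ± 0.45, ERBB2 at 13.3% ± 0.55, EPHB4 at 9.29% ± 0.19 and IGF1R at 6.41% ± 0.30. EPHA3 went from rank 31 to rank 1 and IGF1R from rank 21 to rank 5. With all exons, the share of ERBB3 was the same in both lines within its spread. Its level was 15.3 CPM per kilobase in LNCaP95 and 22.0 in LN95(KO), against the larger sum. With the length of the longest transcript in place of all exons, EPHA3 ranked 3 in LN95(KO), at 13.9%, behind ERBB3 at 19.9% and ERBB2 at 18.6%, so its place at the top depended on the length used. On that length the share of ERBB3 rose beyond its spread, from 17.7% ± 0.39 in LNCaP95 to 19.9% ± 0.46 in LN95(KO). IGF1R then ranked 7 in LN95(KO), at 4.90%. In LNCaP95, PTK7 at 7.30% ± 0.29 and RYK at 6.62% ± 0.22 then differed by more than their spread.

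**Figure D3:**
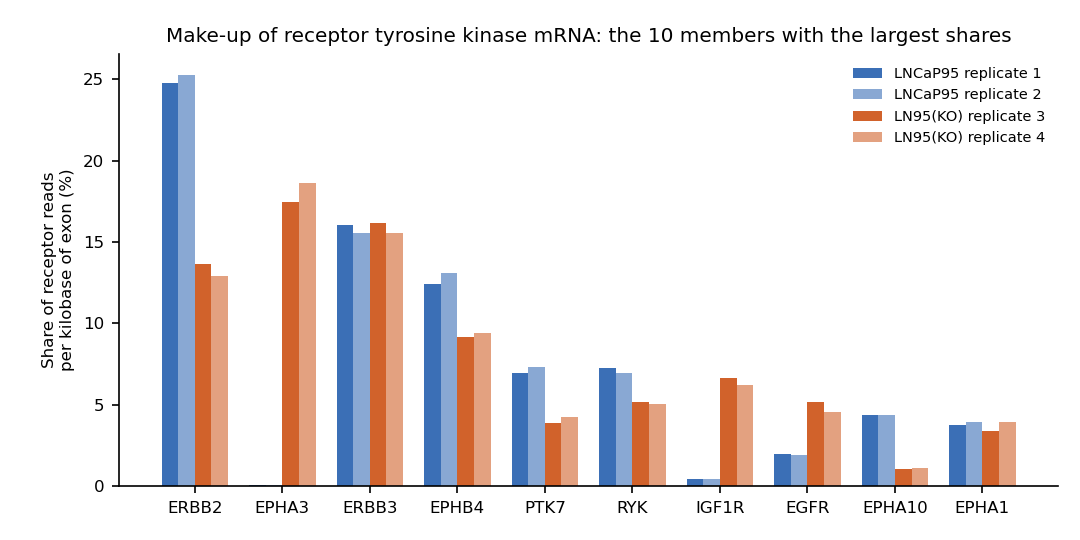
Bars give the share of each receptor in the summed CPM per kilobase of exon of all 53 receptors, in percent, for the 10 receptors with the largest shares, with LNCaP95 libraries in blue, LN95(KO) libraries in orange and the lighter shade for replicates 2 and 4. ERBB2 averages 25.0% in LNCaP95 and 13.3% in LN95(KO), and EPHA3, IGF1R and EGFR take up larger shares in LN95(KO). DDR1, for which no level can be read, adds almost nothing to the sum.

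The sequences just before the start of the members with the largest changes are shown so that a reader can set them side by side. RefSeq promoters were found for 48 of the 53 receptors. FLT4 had no entry. The 250 bases before the start are written 5′ to 3′ on the plus strand of GRCh37, where each matched 1 place: chr3:89156521-89156770 for EPHA3, chr15:99191518-99191767 for IGF1R, chr3:96533188-96533437 for EPHA6, chr3:134513852-134514101 for EPHB1 and chr10:43572267-43572516 for RET. Capitals mark the GC box GGGCGG on either strand, a binding motif of SP family factors, and a run of capitals can hold overlapping boxes. The EPHA6 and RET windows end a few bases inside the gene as GENCODE places its start.
EPHA3: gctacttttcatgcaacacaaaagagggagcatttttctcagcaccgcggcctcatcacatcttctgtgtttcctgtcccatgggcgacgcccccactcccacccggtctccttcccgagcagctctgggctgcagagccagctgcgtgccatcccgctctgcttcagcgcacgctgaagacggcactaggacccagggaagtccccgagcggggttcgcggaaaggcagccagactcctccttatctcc
IGF1R: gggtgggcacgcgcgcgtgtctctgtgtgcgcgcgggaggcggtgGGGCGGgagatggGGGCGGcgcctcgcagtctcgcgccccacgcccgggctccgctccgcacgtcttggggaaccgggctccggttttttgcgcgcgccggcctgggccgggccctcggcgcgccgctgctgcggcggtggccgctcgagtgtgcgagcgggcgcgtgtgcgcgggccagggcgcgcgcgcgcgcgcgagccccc
EPHA6: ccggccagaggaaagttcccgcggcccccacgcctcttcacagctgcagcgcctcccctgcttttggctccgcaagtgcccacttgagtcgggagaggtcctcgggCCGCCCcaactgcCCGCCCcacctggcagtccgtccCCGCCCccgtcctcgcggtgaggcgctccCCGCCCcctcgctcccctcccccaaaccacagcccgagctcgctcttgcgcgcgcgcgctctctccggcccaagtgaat
EPHB1: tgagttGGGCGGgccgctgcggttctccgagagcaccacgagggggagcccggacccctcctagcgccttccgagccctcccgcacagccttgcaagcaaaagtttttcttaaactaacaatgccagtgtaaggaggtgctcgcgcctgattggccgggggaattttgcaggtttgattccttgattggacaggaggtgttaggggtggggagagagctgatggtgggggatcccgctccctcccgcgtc
RET: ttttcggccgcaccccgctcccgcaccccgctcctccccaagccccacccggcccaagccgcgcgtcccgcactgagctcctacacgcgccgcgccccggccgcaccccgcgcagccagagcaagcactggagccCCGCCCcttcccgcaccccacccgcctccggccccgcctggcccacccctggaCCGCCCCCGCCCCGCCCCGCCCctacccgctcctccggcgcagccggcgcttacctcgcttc

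The 5 windows were all richer in G and C than the median promoter. GC content was 61.2% for EPHA3, 81.2% for IGF1R, 72.4% for EPHA6, 60.8% for EPHB1 and 79.6% for RET, against a median of 58.0% over 35116 promoters. They held 15, 48, 26, 15 and 33 CpG sites, against a median of 11. The quartiles over all promoters were 46.4% and 68.0% for GC content and 3 and 23 for CpG sites. EPHA3 and EPHB1 lay between the quartiles on both measures, and IGF1R, EPHA6 and RET lay above them. The GC box, present in 42.6% of all promoters, was not in the EPHA3 window and occurred 2 times in IGF1R, 4 in EPHA6, 1 in EPHB1 and 5 in RET. The letters TGTTCT, which the androgen receptor binds, are in 12.4% of promoters, the TATA box TATAAA in 10.7% and the E-box CACGTG in 6.34%, on both strands. None of the 3 was found in any of the 5 windows.

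The nearest coding genes that could be tested did not change beyond 2-fold in the direction of the receptor beside them. For EPHA3 these were C3orf38, 939 kb away, at a log2 fold change of -0.06 (standard error 0.07), and PROS1, 4061 kb away, at -1.51 (standard error 0.08). For EPHA6, ARL6 lay 2.99 kb away, at -0.15, and NSUN3 2683 kb away, at 0.12. Next to IGF1R, ARRDC4 was at 0.74 and TTC23 at 0.73, in the direction of IGF1R but under 2-fold. CEP63 and PPP2R3A beside EPHB1 were at -0.09 and -0.19, and BMS1 and CSGALNACT2 beside RET at 0.07 and -0.09. FLT4 lay between CNOT6 at 0.14 and MGAT1 at -0.24.

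Ligands, co-receptors, adaptors and negative regulators were examined with lists of 142 genes, of which 98 were tested. In LN95(KO), 13 rose and 18 fell, or 31.6% of those tested, beside the 18.0% of all genes. The median log2 fold change was -0.09. By role, 6 ligands rose and 13 fell of 36 tested, 2 co-receptors rose and 1 fell of 6, 2 adaptors rose and 2 fell of 32, and 3 negative regulators rose and 2 fell of 24. Calls thus made up 52.8% of the ligands tested and 12.5% of the adaptors and effectors. The lists were chosen with earlier results of these data known, so these shares are not a test of the lists. The ligands that fell include FGF13, which was listed with its family although it is intracellular.

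Among the ligands, EFNA5, an ephrin-A that binds EPHA3, rose with the smallest adjusted p. EFNA5 had 123 and 107 counts in LNCaP95 against 2989 and 2926 in LN95(KO), for a log2 fold change of 4.72 (standard error 0.08, adjusted p = 8.80e-18). As with EPHA3, both LN95(KO) libraries lay far above both LNCaP95 libraries. EFNA3, another ephrin-A, had 683 and 659 counts against 187 and 223, at -1.68 (standard error 0.09), and shares 43.9% of its exon bases with a read-through transcript. EFNB2, the main ligand of EPHB4, had 59 and 52 counts against 106 and 141, at 1.18 (standard error 0.18), with 36.4% of its exon bases under a transcript of the opposite strand. The call of EFNB2 was lost without LN95(KO) replicate 4, at 0.99, and in a test against a 2-fold change (glmTreat), at adjusted p = 0.411.

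WNT5A, the Wnt protein that ROR1, ROR2 and RYK bind, had the smallest adjusted p of the ligands that fell. It had 2417 and 2376 counts in LNCaP95 against 119 and 141 in LN95(KO), at -4.17 on the log2 scale (standard error 0.08, adjusted p = 2.98e-17). PROS1, a ligand of TYRO3 and MERTK, had 1084 and 1052 counts against 381 and 354, at -1.51 (standard error 0.08, adjusted p = 1.58e-11). Both ligands were lower in each LN95(KO) library than in either LNCaP95 library. PDGFA, a ligand of PDGFRA, had 724 and 616 counts against 241 and 259, at -1.39 (standard error 0.10). PDGFRA itself had no reads in any library. FGF13, an intracellular member of the FGF family, had 331 and 307 against 102 and 78, at -1.79 (standard error 0.14). FGF18, a secreted FGF that binds FGFR3, rose from 6 and 1 counts to 70 and 72, at 4.33 (standard error 0.39, adjusted p = 4.33e-08). The value for FGF18 was 6.01 without LNCaP95 replicate 1 and 3.57 without LNCaP95 replicate 2.

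Ligands with few reads were called as well. KITLG, the ligand of KIT, had 8 and 13 counts against 21 and 43, at 1.63 (standard error 0.40). Its call was lost without LN95(KO) replicate 4, where the log2 fold change was 1.05, and with glmTreat, at adjusted p = 0.172. NRG4, a ligand of ERBB4, had 7 and 14 against 26 and 38, at 1.63, with 38.2% of its exon bases under FBXO22 of the opposite strand. The call of NRG4 was lost in a test against a 2-fold change (glmTreat), at adjusted p = 0.138. The following genes were chosen after their values were seen. The RET ligands NRTN and GDNF had 36 and 35 counts against 7 and 14 and 34 and 32 against 12 and 20, at -1.71 and -1.01. Their co-receptors GFRA1 and GFRA4 were at 0 in every library, GFRA2 had 0 or 1 count, and GFRA3 had 5 and 2 against 9 and 10. BTC, a ligand of EGFR, had 23 and 28 counts against 0 and 2, while EGF had 1277 and 1284 against 1719 and 1546, at 0.38. IGF1 had 24 and 23 counts against 23 and 23, and 82.5% of its exon bases lie under HELLPAR of the opposite strand.

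**Figure D4:**
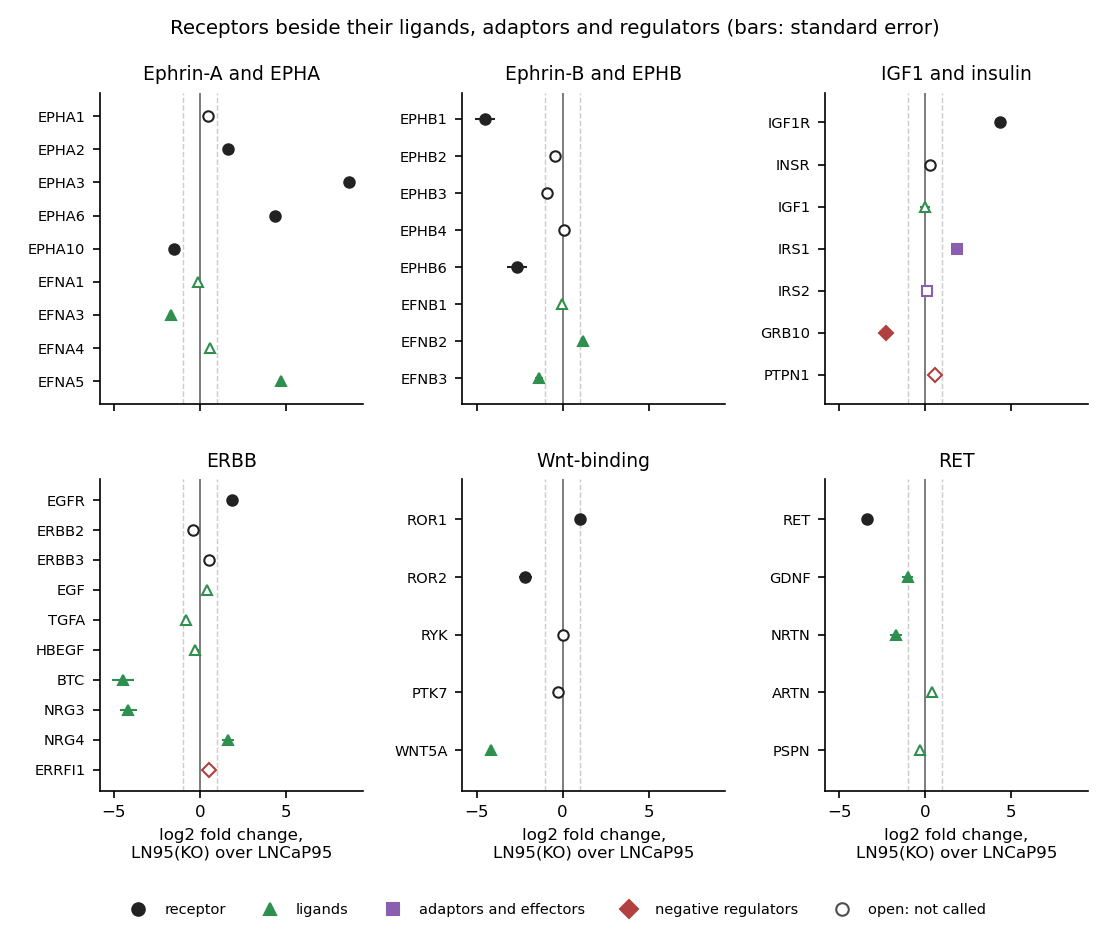
Each panel gives, for receptors and for tested ligands, adaptors or regulators of the same pathway, the log2 fold change of LN95(KO) over LNCaP95 with its standard error, and filled marks are called. EPHA3 and EFNA5 lie far to the right together, IGF1R and IRS1 lie to the right and GRB10 to the left, and ROR2 and WNT5A both lie to the left.

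Of the 6 co-receptors tested, SDC1 and LRP4 rose and NRP1 fell, while 12.5% of the adaptors and effectors were called, beside the 18.0% of all genes. SDC1, a heparan sulfate proteoglycan that presents growth factors, had 628 and 597 counts in LNCaP95 against 1694 and 1838 in LN95(KO), at 1.56 on the log2 scale (standard error 0.06). NRP1, a co-receptor of VEGF receptors, had 1113 and 1093 against 463 and 531, at -1.12 (standard error 0.07). The call of NRP1 was lost in a test against a 2-fold change (glmTreat), at adjusted p = 0.142. LRP4, the agrin co-receptor of MUSK, had 14 and 14 against 32 and 35, at 1.28. Its call was lost in DESeq2, at adjusted p = 0.0821, and with glmTreat, at adjusted p = 0.461. IRS1, the docking protein of IGF1R and INSR, had 138 and 141 counts against 508 and 488, at 1.87 (standard error 0.10, adjusted p = 5.69e-11). SHC4 rose from 8 and 8 to 45 and 53, at 2.63, SHC2 fell from 93 and 79 to 19 and 18, at -2.18, and DOK5 fell from 15 and 13 to 0 in both, which is at least 9.13-fold lower against a limit of 3 counts over the group. The adaptors shared by most receptors stayed under 2-fold, with GRB2 at -0.20, SOS1 at 0.07 and PTPN11 at 0.21 (chosen after their values were seen).

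Among the negative regulators, the called gene with the most reads was GRB10. This adaptor, which binds IGF1R and INSR and restrains their signal, had 15199 and 15362 counts in LNCaP95 against 3084 and 3062 in LN95(KO), at -2.28 (standard error 0.05, adjusted p = 1.45e-16). IGF1R and IRS1 were higher and GRB10 was lower in both LN95(KO) libraries. PTPRJ, a receptor-type tyrosine phosphatase, had 360 and 374 against 1037 and 985, at 1.49 (standard error 0.08). The Sprouty and Spred proteins, which dampen RAS-ERK signalling, were divided: SPRED1 had 274 and 254 against 560 and 573, at 1.13, SPRY1 had 103 and 93 against 222 and 220, at 1.21, and SPRY2 had 145 and 166 against 74 and 48, at -1.31. All of these calls were lost in a test against a 2-fold change (glmTreat), at adjusted p = 0.173, 0.170 and 0.139. CBL, the ubiquitin ligase that sends receptors to degradation and was chosen after its values were seen, had 563 and 608 counts against 578 and 545, at -0.03 (standard error 0.08).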

How the data were processed

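Poly(A) RNA-Seq libraries were read on the DNBseq platform. Raw counts per gene were deposited, which the authors made with htseq on GENCODE release 29, without strand, from hisat2 (version 2.1.0) alignments to hg19. A table of the series and the files of the libraries held the same counts. Reads on overlapping genes and reads that align more than once are left out by that counter. The 5 summary lines, 23.8% to 27.5% of entries, stayed out of library sizes and tests. Of 60880 identifiers, 59899 matched a symbol. Exons and positions came from GENCODE release 44 on GRCh37, and promoters from RefSeq (GRCh38.p14 table), each placed on GRCh37 by exact match.

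Genes were kept by filterByExpr (minimum count 10, minimum total 15) and fitted by quasi-likelihood in edgeR 4.0.16 under R 4.3.3, with TMM factors, robust estimation and no covariate, with Benjamini-Hochberg adjustment over 15626 genes. A call needed an adjusted p under 0.05 and a fold change over 2. The standard error is the log2 fold change over the root of F, and its interval is 1.96 standard errors each way. CPM used TMM-scaled library sizes. Counting intervals (95%, exact binomial) and limits cover counting error only. The smallest two-sided permutation p for 2 against 2 libraries is 0.333, so none was used. The script was tested on simulated data. DESeq2 (version 1.42.0), glmTreat, other scalings and filters, and leaving out each library were tried.

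Named genes were all 53 receptors, with counts for those at 1 CPM or called, and up to 5 called genes of each partner list in each direction by adjusted p. The members and lists were chosen with earlier results of these data known. A planned display of kinase segments is not reported here. The symbol PECAM1 of the marker lists was not used here. A further marker list is not reported here.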

Additional observations from a re-analysis of the deposited data

How the results depend on the processing

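No paired analysis was possible because LNCaP95 has the numbers 1 and 2 and LN95(KO) the numbers 3 and 4. Of 349 estimates of the 32 receptors under 11 alternatives, 330 kept direction and call. Of the 19 called receptors, 13 were called under every alternative and none reversed. The number called was 19 with RLE factors or library totals, 18 with upper quartile factors (without ROR1), 16 with DESeq2, 14 with glmTreat against a 2-fold change (without FLT3, MET, NTRK2, PDGFRB and ROR1), 21 with no filter (with EPHA5 and KIT) and 16 with at least 1 CPM in 2 libraries, which drops EPHB6, FLT3 and MET. Leaving out a library gave 17 to 19, with EPHB3 called without LNCaP95 replicate 2 and EPHA5 without either LN95(KO) replicate. In these fits the lone library was assumed to vary like the other group. Without a fold criterion 14 receptors were higher, as were 32 partner genes, while 42 partner genes were lower and 9349 of all genes passed. With glmTreat, 6 partner genes were higher and 11 lower, of 1687 in all. RYK, near 0 throughout, turned to -0.0028 with upper quartile factors. FGFR4 ranged from -0.00085 without LNCaP95 replicate 2 to 0.26 without LNCaP95 replicate 1. The cause was not tested. The number of receptors expressed was 33 at 0.5 CPM, 27 at 2 CPM and 29 to 32 without a library. Scaling moved the median of all genes by less than 0.1 on the log2 scale.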
